A study of Mus musculus with 6 samples.

Results

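The genes described here encode subunits and assembly factors of respiratory complex I, read in the ventricular apex of the mouse heart. A list of 42 genes was used. Of these, 40 had at least 1 probe set with a single gene symbol, and they are 40 of the 18193 genes measured in all. They comprise 6 core subunits, 27 accessory subunits and 7 assembly factors. Ndufa11 and Ndufs6 had only probe sets listed under several symbols and were left out.

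The study concerned a mouse transgenic for PR-M, a human progesterone receptor of the mitochondrion. The labels name a PR-M expressing and a PR-M non-expressing group, with 3 arrays in each, and do not say whether the non-expressing mice carried the transgene. All 6 samples had received progesterone in oil under the skin, 2.5 mg for 19 to 21 days, so no untreated heart is part of the comparison. The sources used here do not give the strain, the age, the promoter of the transgene or the way expression was established. They also do not say that the 3 samples of a group were separate mice, so each p-value refers to the spread among these arrays, which may be technical.

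Complex I is the entry point of NADH electrons into the respiratory chain of the inner mitochondrial membrane. Its core subunits hold the flavin and the iron-sulfur clusters that pass electrons to ubiquinone, and the membrane arm pumps protons. Accessory subunits surround and stabilise the core, while assembly factors help to build the enzyme and are absent from the finished complex. The heart is among the tissues richest in it, since its contraction depends on oxidative ATP production. Core subunits encoded by mitochondrial DNA were not analysed here.

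The promoters of these genes can be read beside their expression. RefSeq promoters of GRCm38.p6, from 250 bases before to 50 bases after an annotated transcript start, were held for 38 of the 42 listed genes. In some genes, such as Ndufs7, that start lies inside the gene. The promoters were searched on both strands for letters of 4 factors known from respiratory genes. The letters AAGATGGC of YY1, a zinc finger factor, were found in 7 of 38 genes (18.4%) beside 3.57% of 17491 protein-coding genes with a promoter. The letters GCGCATGCG of NRF1, nuclear respiratory factor 1, were found in 3 of 38 (7.89%) beside 2.61%. The letters CCGGAAGT, bound by GABP and other ETS factors, were found in 1 of 38 (2.63%) beside 5.69%, and TCAAGGTCA of the oestrogen-related receptor ERRA in 0 of 38 beside 0.377%. A NRF1 match can lie on both strands at once because its letters are nearly a palindrome, and no match overlapped that of another factor.

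All 7 YY1 matches lay on the sense strand and began between bases 23 and 39 of the transcript. Of 617 other coding genes with these letters, 407 held them on the sense strand and 112 of those had a match that began in the same stretch. That stretch was set by the lowest and highest of the 7 positions, so all 7 lie in it by construction. The count of 112 therefore cannot show whether the position is particular to complex I genes. The letters contain ATG, and whether the matches lie at the start of translation was not tested. Windows of 28 bases around the matches are shown because they are what these promoters share, with the matched letters in capitals, 5′ to 3′ on the gene's strand.

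Ndufa9 (chr6:126849098-126849125, minus strand): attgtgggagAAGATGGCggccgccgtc

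Ndufs7 (chr10:80249463-80249490, plus strand): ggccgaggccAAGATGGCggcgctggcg

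Ndufs4 (chr13:114388045-114388072, minus strand): gtttgcctacaggAAGATGGCggcggtc

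Ndufs6 (chr13:73328433-73328460, minus strand): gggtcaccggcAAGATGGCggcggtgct

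Ndufc1 (chr3:51408916-51408943, minus strand): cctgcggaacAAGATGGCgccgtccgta

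Ndufa3 (chr7:3617385-3617412, plus strand): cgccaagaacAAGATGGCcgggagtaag

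Ndufb8 (chr19:44555393-44555420, minus strand): aaccgcggagaaggtgAAGATGGCtgcc

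The NRF1 matches of Ndufa8 and Ndufaf4 began at positions -9 and -113 relative to the start of the gene. Both windows are given because these are the 2 measured genes with the NRF1 letters. The other gene with them, Ndufa11, had its match at -60 and was left out of the expression comparison.

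Ndufa8 (chr2:36049330-36049357, minus strand): tcgctggagaCGCATGCGCagatggtac

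Ndufaf4 (chr4:24897960-24897987, plus strand): ccagatgtctGCGCATGCGcctgtgcgg

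Values are the deposited log2 expression values. Each gene was read from its brightest probe set, and differences are expressing minus non-expressing. They were tested with limma over all 18193 genes, with Benjamini-Hochberg adjustment and a threshold of 0.05. On these arrays 30 of the 40 genes had a mean over 12, and 9 lay between 8 and 12. The exception was Ndufb4, an accessory subunit of the membrane arm, whose single usable probe set lay between 3.80 and 4.10, below the array medians of 5.77 to 5.78. Ndufb4 is therefore read close to background here. Very bright probe sets can understate a change, and how far they do so here was not tested.

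None of the 40 complex I genes passed the threshold in either direction. The lowest adjusted p in limma was 0.318, against 0.022% of all genes called (4 genes, all lower in the expressing group). At an unadjusted p under 0.05 there were 6 of the 40 (15%), beside 12.6% of all genes. Higher were 5 of the 40, beside 959 of 18193 genes (5.27%), and lower was 1 of the 40, beside 1334 (7.33%). Of the 333 genes with a mean over 12, 38 (11.4%) lay under this limit, 25 higher and 13 lower. The differences of the complex I genes were small. They ran from -0.25 for Ndufaf2 to 0.31 for Acad9, so the largest was 1.24-fold, and 29 of the 40 were under 0.1 in size. The 95% intervals of the 40 differences all lay between -0.50 and 0.55, and the SE ranged from 0.062 to 0.15.

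More complex I genes were higher than lower in the expressing group, 26 against 14, with a median difference of 0.026. Over all genes 44.0% were higher and the median was -0.019. Complex I genes are bright, and of the 333 genes with a mean over 12, a group formed after the values were seen, 61.9% were higher with a median of 0.023. The share of complex I genes that were higher, 65.0%, lay close to that of these bright genes. The 333 include 30 of the complex I genes, so this share and the other bright-gene shares given here are not independent of them. They also include 34 subunits of complexes III and IV and of ATP synthase, and 11 genes of the tricarboxylic acid cycle. By role, 5 of 6 core subunits were higher with a median of 0.086, 16 of 27 accessory subunits with a median of 0.014, and 5 of 7 assembly factors with a median of 0.050. Differences between the roles were not tested.

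**Figure D1:**
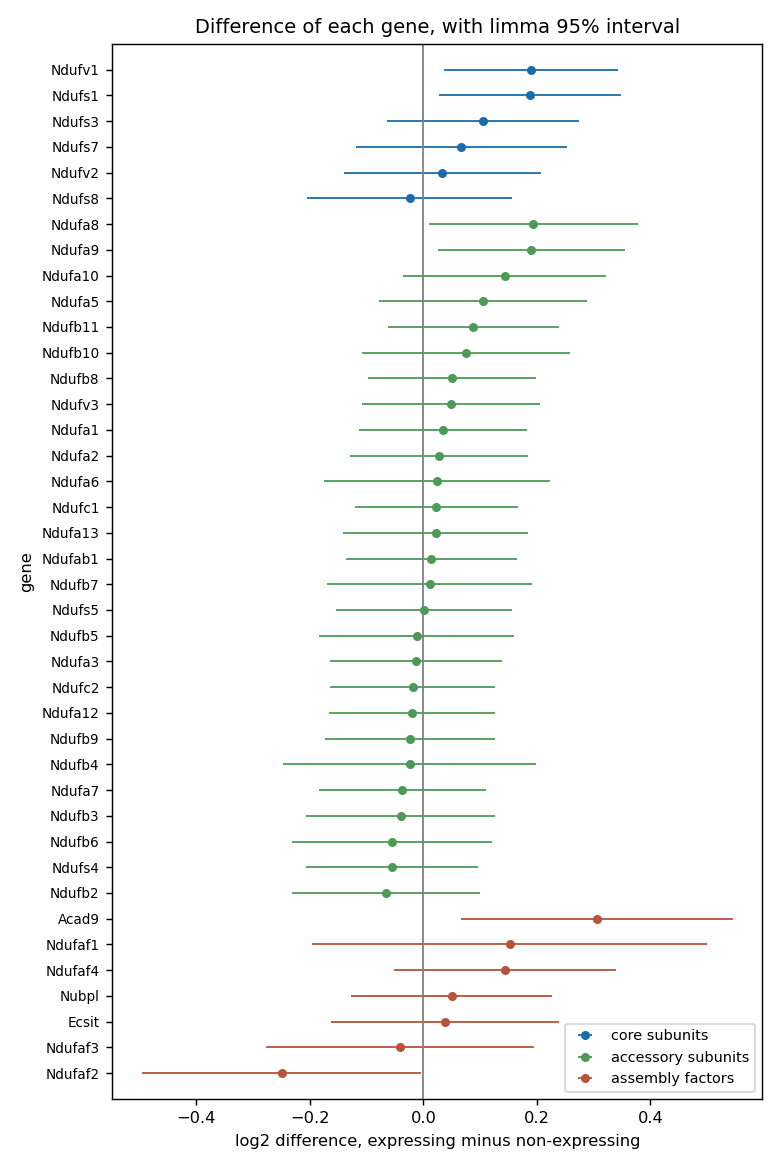
Difference in log2 value between 3 PR-M expressing and 3 non-expressing arrays (x axis) for 40 complex I genes (y axis), coloured by role, with limma 95% intervals as bars. All points lie between -0.25 (Ndufaf2) and 0.31 (Acad9), and 6 of the 40 intervals leave out 0 before adjustment.

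Among the core subunits, Ndufv1 and Ndufs1 had the largest differences. Ndufv1 carries the flavin and binds NADH, the first step of electron entry, and lies on chromosome 19 from 4007499 to 4012755 in GRCm38.p6. It read 12.46, 12.38 and 12.43 in the expressing arrays and 12.24, 12.19 and 12.27 in the non-expressing ones. The 3 expressing arrays were all above the 3 non-expressing ones, with a difference of 0.19 (SE 0.066, adjusted p 0.331 in limma). Ndufs1, the large iron-sulfur subunit, lies on chromosome 1 from 63143592 to 63176822. Its values were 12.62, 12.51 and 12.57 against 12.43, 12.32 and 12.38. Here too the groups did not overlap, and the difference was 0.19 (SE 0.069, adjusted p 0.345 in limma). Both genes belong to the N module, the tip of the peripheral arm that oxidises NADH.

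The other 4 core subunits differed less. Ndufs3, of the Q module next to the ubiquinone site, averaged 13.25 ± 0.054 with PR-M expression and 13.15 ± 0.079 without (SD, n = 3 each), a difference of 0.11. Ndufs7 and Ndufs8 hold the last iron-sulfur clusters before ubiquinone. They differed by 0.067 and -0.024. Ndufv2, which holds an iron-sulfur cluster near the NADH site, differed by 0.033. In these 4 genes the groups overlapped, since non-expressing replicate 1 read above at least 1 expressing array in each. The adjusted p of the 4 lay between 0.578 and 0.926 in limma. Across the modules, the median difference was 0.033 over 7 measured genes of the N module, 0.086 over 4 of the Q module and -0.018 over 10 Ndufb genes of the distal membrane arm, where 4 were higher and 6 lower.

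Ndufa9 and Ndufa8 had the largest differences of the accessory subunits. Ndufa9, a subunit at the junction of the peripheral and membrane arms, lies on chromosome 6 from 126821863 to 126849144. It read 13.19, 13.05 and 13.11 in the expressing arrays and 12.98, 12.90 and 12.89 in the non-expressing ones. The groups did not overlap (difference 0.19, SE 0.071, adjusted p 0.346 in limma). Ndufa8, on the side of the intermembrane space, lies on chromosome 2 from 36036324 to 36049338. Its values were 13.28, 13.26 and 13.27 against 13.21, 12.99 and 13.03. The expressing arrays were nearly equal and all above the others, while non-expressing replicate 1 came close to them (difference 0.19, SE 0.079, adjusted p 0.379 in limma).

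Further accessory subunits with positive differences were Ndufa10 (0.14), Ndufa5 of the Q module (0.11), Ndufb11 (0.088) and Ndufb10 (0.075). Of these 4, only Ndufb11 had groups without overlap. Ndufs4, a subunit whose loss in mice causes a fatal encephalopathy, differed by -0.055 (95% interval -0.21 to 0.097). Dimmer Ndufs4 probe sets differed by 0.080, 0.19 and -0.17, all with overlap, the last of them below the array medians. Ndufb2 and Ndufb6, both of the membrane arm, differed by -0.066 and -0.055. The differences nearest 0 were those of Ndufs5 (0.0010, interval -0.15 to 0.16), Ndufb7 (0.011) and Ndufb5 (-0.012). The remaining 15 accessory subunits lay between -0.040 and 0.051. Counting all roles, 6 of the 40 genes (15%) were higher without overlap. The share was 8.16% of all genes and 17.4% of those with a mean over 12. Lower without overlap was 1 of the 40 (2.5%), beside 10.8% of all genes. The 6 higher genes include Ndufc1, at 0.023, whose other probe set was lower without overlap (-0.071).

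**Figure D2:**
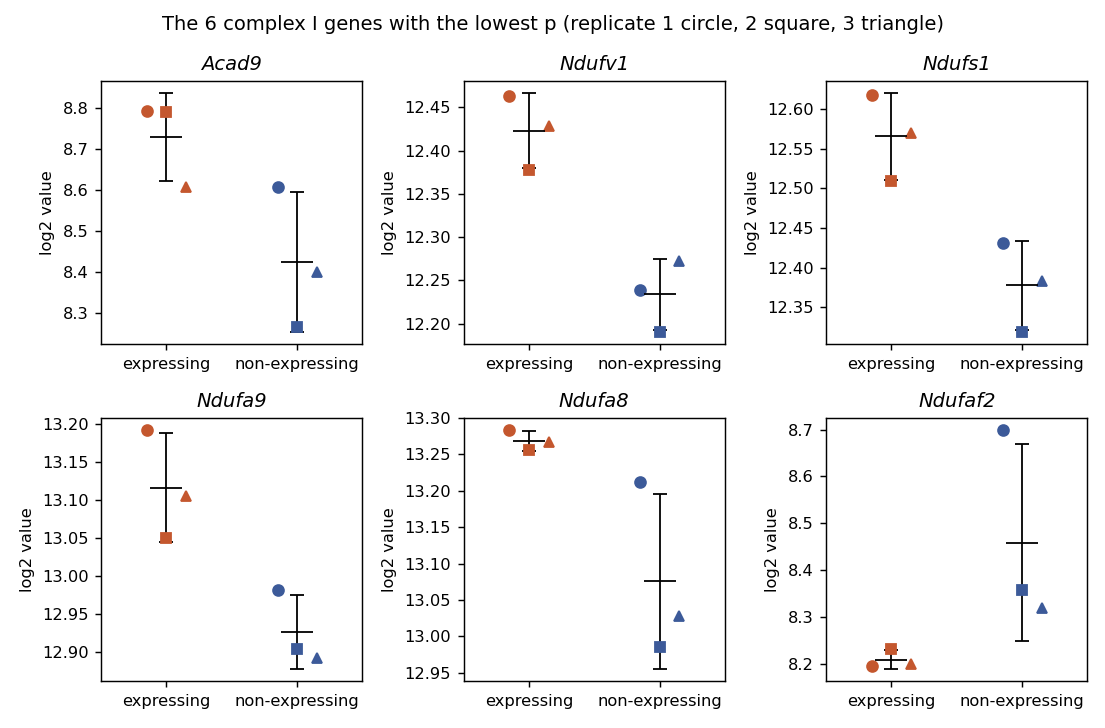
Log2 values (y axis) of the 6 complex I genes with the lowest p in each of the 3 expressing and 3 non-expressing arrays; symbols mark replicates 1 to 3, and the horizontal bar and whiskers are the mean and SD. The y axes differ and do not start at 0; non-expressing replicate 1 is the highest or middle array of its group in each gene, for example 8.70 in Ndufaf2.

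The assembly factors held both ends of the range. Acad9, an acyl-CoA dehydrogenase relative that works with Ecsit and Ndufaf1 in assembling the membrane arm, lies on chromosome 3 from 36065979 to 36092857. Its values were 8.79, 8.79 and 8.61 against 8.61, 8.27 and 8.40. Expressing replicate 3 and non-expressing replicate 1 met at 8.61, so the groups touched (difference 0.31, SE 0.10, adjusted p 0.318 in limma). A dimmer Acad9 probe set differed by 0.18 without overlap, and the dimmest, below the array medians, by 0.081. Ndufaf1 differed by 0.15 with the widest spread of all members (SE 0.15). Its difference was 0.31 without non-expressing replicate 1, 0.031 without non-expressing replicate 2 and 0.058 without expressing replicate 1. Ecsit differed by 0.038.

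Ndufaf2, a relative of Ndufa12 that sits in its place until late in assembly, lies on chromosome 13 from 108052589 to 108158652. It ran the other way, at 8.20, 8.23 and 8.20 against 8.70, 8.36 and 8.32. All 3 non-expressing arrays were above the expressing ones, with replicate 1 far above its group, and the difference of -0.25 (SE 0.11) did not pass (adjusted p 0.391 in limma). Without non-expressing replicate 1 the difference was -0.13. Ndufa12 itself differed by -0.020. Ndufaf3 and Ndufaf4 act together on the Q module, and they differed by -0.041 and 0.14. Nubpl, which helps to deliver iron-sulfur clusters to complex I, differed by 0.050. The adjusted p of these 3 lay between 0.513 and 0.897 in limma.

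In the complex I genes the non-expressing arrays were spread more widely than the expressing ones. Their SD exceeded that of the expressing group in 32 of 40 genes, with a median SD of 0.075 against 0.040. The same count over all genes was not made, so whether this spread is particular to complex I was not tested. Non-expressing replicates 1 and 2 stood at opposite ends. Replicate 1 was above both replicates 2 and 3 in 32 of 40 genes (80.0%), beside 37.7% of all genes and 47.1% of those with a mean over 12. Replicate 2 was the lowest of all 6 arrays in 27 of 40 (67.5%), beside 16.9% of all genes and 31.5% of those with a mean over 12. Genes of the tricarboxylic acid cycle, which supplies NADH, had replicate 2 lowest in 10 of 13. They had replicate 1 above replicates 2 and 3 in 11 of 13. For subunits of complexes III and IV and of ATP synthase these counts were 20 and 21 of 36. For complex II genes they were 3 and 5 of 8. Replicate 1 was also above the mean of the expressing arrays in 27 of the 40 complex I genes. The same held in 9714 of all 18193 genes and in 149 of the 333 with a mean over 12. Over the complex I genes, the median excess of replicate 1 over the mean of replicates 2 and 3 was 0.12. That was more than their median difference between the groups.

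This pattern was seen in all roles. Replicate 1 exceeded replicates 2 and 3 in 5 of 6 core subunits, 20 of 27 accessory subunits and 7 of 7 assembly factors. The median of the centred values over the 40 genes was 0.022, -0.022 and 0.029 in the expressing arrays and 0.050, -0.074 and -0.032 in the non-expressing ones. The count of higher genes moved with single arrays. Without non-expressing replicate 1, 32 of 40 genes were higher with a median of 0.060. Without non-expressing replicate 2, 20 of 40 were higher with a median of 0.00095. The accessory subunits then had a median of -0.0096, and 0.037 without non-expressing replicate 1. With 1 array left out the core median ranged from 0.055 (without non-expressing replicate 2) to 0.14 (without non-expressing replicate 1), and that of the assembly factors from 0.024 (without expressing replicate 3) to 0.11 (without non-expressing replicate 1). With any other array left out, between 25 and 28 were higher.

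**Figure D3:**
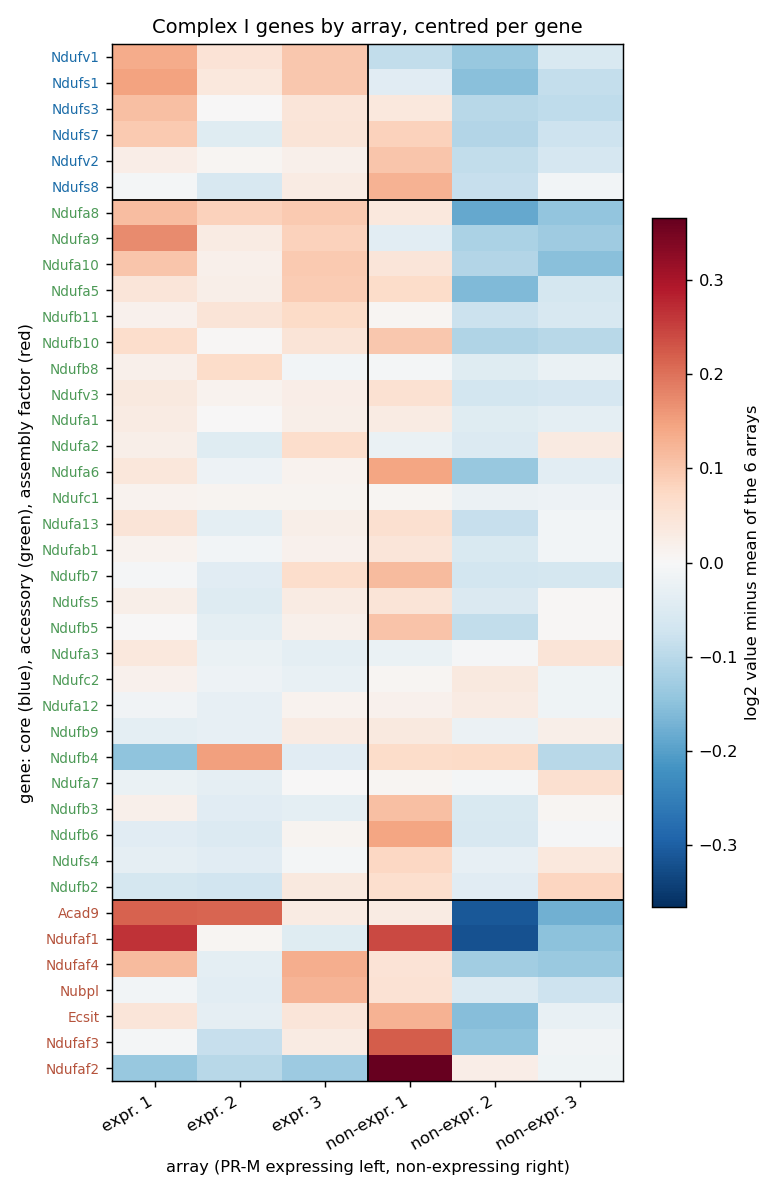
Log2 value minus the mean of the 6 arrays (colour) for 40 complex I genes (rows, ordered by role and difference) in 6 arrays (columns). Non-expressing replicate 1 is above replicates 2 and 3 of its group in 32 of 40 genes, and replicate 2 is the lowest of the 6 arrays in 27 of 40.

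In the sample titles, non-expressing replicate 1 carries a prefix of its own, replicates 2 and 3 share another, and the 3 expressing samples share a further one. No prefix holds both groups, so a prefix effect and the group cannot be told apart. With the prefix as a random block the lowest adjusted p of a complex I gene in limma was 0.595, and with non-expressing replicate 1 left out it was 0.135. Array weights, which let the fit rate each array by its residuals, gave that replicate the lowest weight, 0.381, and the lowest adjusted p of a complex I gene was then 0.123.

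Heart muscle markers were among the brightest probe sets, where changes may be understated. The 7 used were Myh6, Tnnt2, Tnni3, Myl2, Myl3, Actc1 and Pln, and not all are particular to the ventricle. Their summed level was 17.28 to 17.32 on the log2 scale with PR-M expression and 17.29 to 17.31 without. Only Myl3, a ventricular myosin light chain, had groups without overlap (difference -0.043). The summed level of 7 atrial markers was 11.8 to 13.3 against 10.8 to 11.4, without overlap. Of these atrial markers 5 were higher, with none past the threshold. Among them, Sln, Myl4 and Myl7 were higher without overlap, with an adjusted p between 0.0636 and 0.0693 in limma. Bmp10, typical of the atria, stayed between 5.59 and 5.82 in all arrays, close to the array medians. The groups also overlapped in Nppa (1.0), Stard10 (0.10) and Nr2f2 (-0.088). The summed level of 7 fibroblast markers was 14.5 to 14.6 against 14.3 to 14.4, without overlap. All 7 were higher, with a median of 0.19 and none past the threshold. The sums of 2 Schwann cell markers (7.88 to 8.07 against 7.52 to 7.65) and of 2 brown adipocyte markers (9.51 to 9.68 against 9.70 to 9.89) also did not overlap, and those of 7 further cell types did. Of the brown adipocyte markers, Cidea was lower without overlap (-0.25), while Ucp1, the defining one, differed by 0.13 at a level of 4.11 to 4.39, below the array medians. The 18S ribosomal RNA control probe sets averaged 8.31 ± 0.22 against 9.88 ± 0.38 (SD, n = 3 each), the highest value, 10.3, being that of non-expressing replicate 1 (two-sided exact permutation test, p = 0.1, which is the lower limit for 3 against 3 arrays). Beta-actin 3′ minus 5′ values were 1.23 ± 0.049 and 1.38 ± 0.068 (two-sided exact permutation test, p = 0.1). The 18S 3′ minus 5′ values went the other way, at 1.65 ± 0.30 and 0.85 ± 0.17 (two-sided exact permutation test, p = 0.1), and those of Gapdh overlapped, at 0.17 ± 0.063 and 0.25 ± 0.073 (two-sided exact permutation test, p = 0.3). The part of these measures in the complex I differences was not tested, and in bulk tissue fewer cells of a type and less RNA per cell cannot be told apart.

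Other probe sets of the same genes gave a check on the brightest ones. There were 45 of them, for 22 genes, and none passed in a limma fit over all probe sets, where 0.0133% of all probe sets were called. Of the 40 that were not dimmer than the median of all probe sets, 32 lay within 0.1 of the brightest probe set of their gene and 28 had its sign. Both further Ndufv1 probe sets were higher without overlap, with differences of 0.13 and 0.11. In Ndufc1 the other probe set was lower without overlap (-0.071), while the brightest was higher without overlap (0.023). The largest departure was in Ndufab1, the mitochondrial acyl carrier protein that is also a complex I subunit. Its brightest probe set read 13.75 and 13.73 on average and differed by 0.014. A dimmer one read 6.4, 6.1 and 6.4 with PR-M expression and 6.0, 5.4 and 5.3 without. It differed by 0.74 without overlap (SE 0.18, adjusted p 0.195 in limma over probe sets), and another dimmer one by 0.28. The other 2, brighter than these and dimmer than the first, differed by -0.10 and 0.027 with overlap. The Ndufab1 probe sets were singled out after their values were seen, and the pair with the largest differences lies near the array medians.

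**Figure D4:**
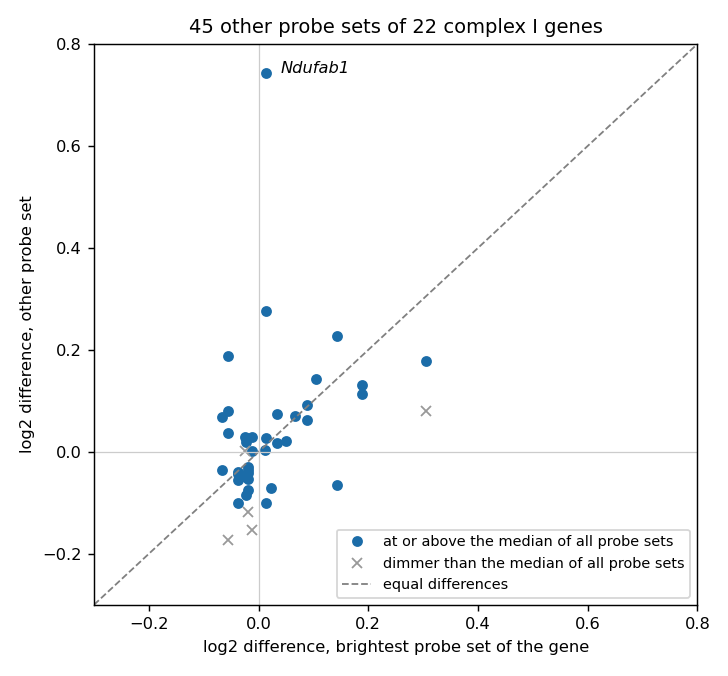
Log2 difference of 45 other probe sets (y axis) against that of the brightest probe set of the same gene (x axis) for 22 complex I genes; the dashed line marks equal differences and crosses mark probe sets dimmer than the median of all. Of the 40 brighter ones 32 lie within 0.1 of the dashed line, measured along the y axis, and the Ndufab1 probe set at 0.74 stands apart.

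Further genes of the pathway and of its neighbours gave a frame for these sizes. Of 11 measured further complex I assembly genes none passed in limma, 6 were higher and 5 lower, and the median was 0.032. Ndufaf8 differed by -0.19 (adjusted p 0.346 in limma). Tmem126b, a membrane protein of the same assembly complex as Acad9, differed by 0.25 (adjusted p 0.457 in limma). Its values lay close to the array medians or below, with non-expressing replicate 2 the lowest at 5.23. None of 8 complex II genes passed, with a median of 0.0042 and 4 on each side. Of 36 subunits of complexes III and IV and of ATP synthase none passed, 27 were higher and the median was 0.025, close to the 0.026 of complex I. In the tricarboxylic acid cycle 13 of 13 genes were higher with a median of 0.17, and none passed. Among 13 transcriptional regulators of respiratory genes none passed, and 8 were higher. Of these, Tfam, which maintains mitochondrial DNA, differed by 0.29 (adjusted p 0.324 in limma) and Gabpa, an ETS factor that binds many respiratory promoters, by 0.21 (adjusted p 0.343 in limma). No difference between these lists was tested.

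**Figure D5:**
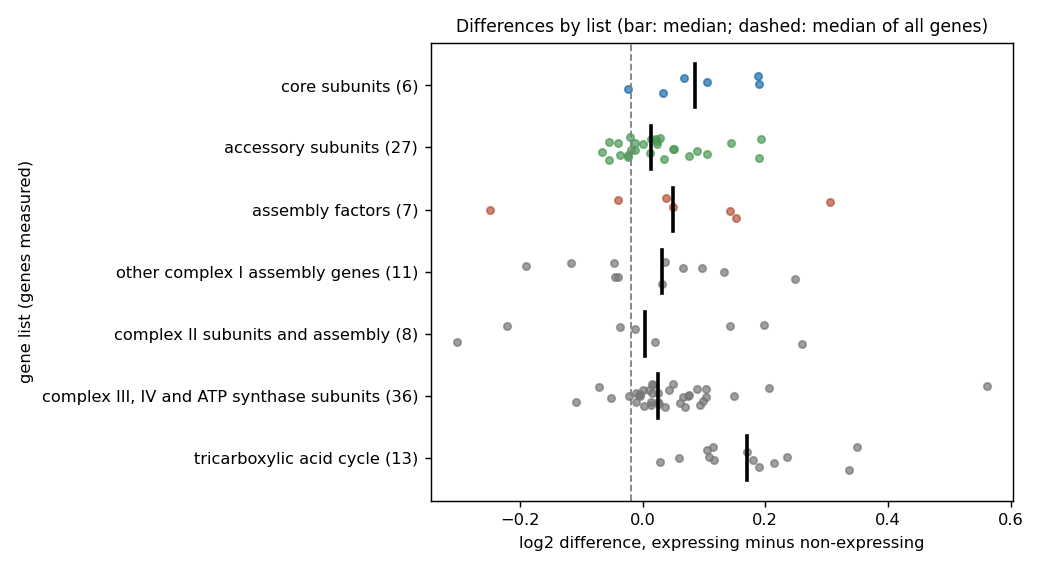
Log2 difference, expressing minus non-expressing (x axis), of the genes in 7 lists (rows, number measured in brackets); each point is a gene, black bars are list medians and the dashed line is the median of all genes, -0.019. Complex I roles have medians of 0.086, 0.014 and 0.050, and the tricarboxylic acid cycle 0.17.

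The genes whose values followed the mean centred value of the complex I genes most closely over the 6 arrays were Ppil1, Pcdhb6, Fastk, Ablim1 and Ppa2. Their Pearson r lay between 0.993 and 0.997 over 6 arrays. They are the closest of all other genes, so such values are high by selection. In Ppil1, for example, non-expressing replicate 1 read 9.78 and replicates 2 and 3 read 8.65 and 8.92, again with replicate 1 the highest and replicate 2 the lowest of the 6 arrays.

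The promoter letters shown above can be set beside the differences. The 6 measured genes with the YY1 letters had a median difference of 0.037 and ranged from Ndufs4, at -0.055, to Ndufa9, at 0.19. The 30 measured genes whose promoters lacked them had a median of 0.023. For the NRF1 letters the median was 0.17 over 2 genes with them and 0.022 over 34 without. Ndufs3, the 1 gene with the letters CCGGAAGT, differed by 0.11, beside a median of 0.023 over 35 without. Counts of 1 and 2 genes are too small for a comparison, and none was tested. A match of letters describes the sequence only, and binding was not measured.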

How the data were processed

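Total RNA of the ventricular apex was amplified and read on Affymetrix mouse arrays, per the labels. The log2 values deposited by the authors of 45101 probe sets on 6 arrays were used; the submitters' processing notes name RMA and Partek 6.6 for the values the authors deposited, without saying what each did. RMA usually scales arrays to a common distribution, which removes changes shared by all genes. Control probe sets (64) were left out of the tests. Probe sets with a single platform symbol (34945) were reduced to the brightest per gene, and limma 3.58.1 in R 4.3.3 (default prior with 3.83 degrees of freedom beside 4 residual ones, two-sided) was fitted over the 18193 genes, after testing on simulated data. The prior was estimated over these genes; estimated over all probe sets it was an alternative chosen after seeing the data. Fold changes and intervals come from the fit over genes. Alternatives for the choice of probe set, scaling, variance prior, array weights and left-out arrays are given in the closing section. The complex I genes and all lists were chosen with earlier results of these data known. Named genes are all core subunits and assembly factors, and the accessory subunits with the 8 lowest p, the 3 differences nearest 0 and the 3 lowest p among negative ones. The number of arrays limits the precision.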

Additional observations from a re-analysis of the deposited data

How the results depend on the processing

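No complex I gene passed under any of the 20 alternatives, where the lowest adjusted p in limma was 0.123, with array weights. Some alternatives change only the test or the genes tested and leave each difference as it was, so its sign could not change. They are the dim filter, the intensity trend, ordinary statistics, treat, the threshold of 0.10 and the prior over all probe sets. Of 489 differences of named genes under all 20, with these unchanged ones included, 462 kept their sign and 27 did not. None of the 27 was larger than 0.080 in size or past the threshold. These were, with the mean of all probe sets, Ndufs4 (0.010) and Ndufb5 (0.0088); with the second brightest probe set, Ndufs8 (0.020), Ndufa10 (-0.066), Ndufs4 (0.080), Ndufb5 (0.030) and Ndufb6 (0.038); with cyclic loess, Ndufs5 (-0.0094) and Ndufb7 (-0.0062); with quantile scaling, Ndufs5 (-0.011); with array weights, Ndufaf3 (0.0027) and Ndufb5 (0.0073); and with the prefix block, Ndufs5 (-0.0014). With 1 array left out, Ndufs5 ranged from -0.025 to 0.025, Ndufs8 from -0.071 to 0.034, Ndufb5 from -0.060 to 0.037, Ndufb6 from -0.097 to 0.0034, Ndufb7 from -0.020 to 0.071, Ndufaf3 from -0.13 to 0.060, Ndufv2 from -0.0030 to 0.092 and Ecsit from -0.030 to 0.11. The second brightest probe sets exist for 22 complex I genes, of which 15 were higher, and gave the assembly factors, of which only Acad9 and Ndufaf4 have them, a median of 0.20. The count of all genes past the threshold, 4, was 1 with the mean of all probe sets or ordinary statistics, 2 without _x_at and _s_at probe sets or with treat against 1.2-fold, 19 with a filter on dim probe sets, 17 with an intensity trend and a robust prior together, 26 with array weights or at a threshold of 0.10, 12 with the prior estimated over all probe sets, and 0 to 11 in limma with 1 array left out (expressing replicates 1 to 3 in turn 9, 6 and 2, non-expressing ones 11, 0 and 2). The cause of these moves was not tested. No paired analysis was possible because replicates were numbered here in accession order, which pairs no samples, and the labels give no pairing of their own. With 3 arrays in each group, changes as small as most seen here could be missed.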
